A study of Mus musculus with 6 samples.

Results

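The Zfp genes are the mouse genes named for zinc finger proteins, and the 151 expressed ones are described here across 6 cultures of pluripotent mouse cells. They were taken from the 339 rows of 22558 whose name is Zfp followed by a number alone. Zfp42, Zfp352 and Zfp57 were set aside by name, and a gene was kept when it reached 5 FPKM (a fragment count divided by transcript length and sequencing depth) in 1 or more of the 6 libraries. The members were thus chosen by the same FPKM values that are compared below, and counts over them describe these libraries and are no support for a difference. The last genes to pass were Zfp672, Zfp870 and Zfp956, with maxima of 5.03, 5.03 and 5.05 FPKM. The first to miss were Zfp821, Zfp954 and Zfp661, with maxima of 4.98, 4.93 and 4.92 FPKM. The 185 rows below the threshold included 142 that reached 1 FPKM in some library, 43 that did not, and among these 2 listed at 0 in all 6.

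The knockout embryonic stem cells (ESC), labelled H2A.X Cre KO, were 129Sv cells in which the gene of the histone variant H2A.X had been deleted with Cre, and the Flox/Flox ESC were 129Sv cells whose gene was flanked by recombination sites. The labels name neither the driver of Cre nor the deleted stretch. The induced pluripotent stem cells (iPSC) had a mixed 129Sv/C57 background and came from fibroblasts of the peritoneum (PF) or of the tail tip (TTF), with a 4N- and a 4N+ line from each. The labels also carry H2A.X on the iPSC but give them no genotype, and they do not explain 4N. From knowledge outside the labels, 4N was read as tetraploid complementation, in which a line injected into a tetraploid blastocyst has to build the embryo by itself. All cultures were at passage 25, were grown on feeder cells with LIF and were split to gelatin-coated plates before RNA extraction. Each condition was 1 line with 1 library, so no 2-library comparison has a replicate check, and p-values and q-values printed for one are those of the authors' deposited tables. Values were deposited in 3 tables of 2 libraries, and ratios were taken within a table on the log2(FPKM + 1) scale, which understates the change of genes with low expression.

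Most proteins of this family hold arrays of C2H2 fingers, short loops in which a pair of cysteines and a pair of histidines hold a zinc ion, and consecutive fingers together read a stretch of DNA. Many also carry a KRAB domain. It binds Trim28, which in turn brings the histone methyltransferase Setdb1 and HP1 proteins, and in ESC this machinery keeps retroelements and some imprinted genes silent. KRAB genes often lie in tandem clusters that arose by duplication. Other proteins with the same name prefix have unrelated jobs, such as messenger RNA decay, mitosis or protein turnover.

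H2afx, the gene of H2A.X, stood at 6.18 FPKM in KO and 34.9 FPKM in Flox/Flox ESC, at 75.2 FPKM in the 4N- and 69.1 FPKM in the 4N+ PF line, and at 65.3 FPKM in the 4N- and 70.9 FPKM in the 4N+ TTF line. The 4 pluripotency markers summed to 363 FPKM in the KO ESC, against 571 FPKM in Flox/Flox, with Nanog level. All 5 trophoblast markers were higher in KO (884 FPKM in KO against 34.6 FPKM in Flox/Flox). Most of the KO sum came from the keratin genes Krt18 (659 FPKM in KO) and Krt8 (188 FPKM in KO). Hand1 had 34.0 FPKM in KO and 0.829 in Flox/Flox. Gata3 was at 1.64 FPKM in KO and 0.133 in Flox/Flox, and Cdx2 at 0.765 FPKM in KO and 0.0930 FPKM in Flox/Flox. All 6 fibroblast markers were lower in the 4N- than in the 4N+ PF line (5.07 FPKM in 4N- against 56.0 FPKM in 4N+). In the TTF pair the fibroblast sum was 4.04 FPKM in the 4N- and 4.12 FPKM in the 4N+ line. Their part in the Zfp results was not tested. In these bulk libraries, fewer cells of a type and less RNA per cell cannot be told apart. At the depth recovered from intronless receptor genes, 5 FPKM on a 2000 bp transcript stood for at least 333 to 535 fragments, depending on the library. The exact Poisson 95% interval on 333 fragments runs from 10.5% below to 11.3% above, and covers counting error only.

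Most Zfp genes were present at low to moderate levels in every culture. All 151 reached 1 FPKM in all 6 libraries, 82 reached 5 FPKM in all 6, and 11 reached it in 1 library only. Their mean over the 6 libraries had a median of 7.42 FPKM and ran from 3.04 to 132.1 FPKM. Only 15 genes averaged over 20 FPKM. For 103 genes the highest library was less than 2 times the lowest, a comparison that spans tables scaled separately. The KO ESC held the lowest value of 66 genes and the Flox/Flox ESC the highest value of 65. These counts span the same tables, and the share over all genes was not counted. Other genes at 5 FPKM were also lower in the KO than in the Flox/Flox ESC, with a median log2 ratio of -0.15. Members could pass the threshold through the Flox/Flox library itself. The median over the 151 genes was 6.65 FPKM in the KO ESC and 8.75 FPKM in Flox/Flox ESC. It was 6.79 FPKM in the 4N- and 7.14 FPKM in the 4N+ PF line, and 8.21 FPKM in the 4N- and 8.17 FPKM in the 4N+ TTF line.

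The most abundant was Zfp207, which encodes a spindle assembly protein that binds Bub3, with 76.0 FPKM in the KO ESC and 137 in the Flox/Flox ESC, 119 in the 4N- and 161 in the 4N+ PF line, and 157 in the 4N- and 142 in the 4N+ TTF line. Zfp106, which encodes an RNA-binding protein, followed with 54.2 FPKM in the KO and 80.0 in the Flox/Flox ESC, 60.1 in the 4N- and 67.5 in the 4N+ PF line, and 55.7 in the 4N- and 62.1 in the 4N+ TTF line. For both, the KO ESC library was the lowest of the 6. The next by mean level were Zfp330 (32.7 FPKM), Zfp740 (32.4), Zfp664 (29.6), Zfp568 (29.2), Zfp655 (27.3) and Zfp259 (25.3). At the other end of variability, Zfp646 stayed within a 1.11-fold range over the 6 libraries at a mean of 9.88 FPKM, and Zfp148, a GC-box binding factor, within a 1.14-fold range at 5.66 FPKM. Both were picked after their values were seen. The widest range, 10.7-fold, belonged to Zfp951, with 3.28 FPKM in the KO and 2.20 in the Flox/Flox ESC, 1.55 in the 4N- and 1.07 in the 4N+ PF line, and 10.01 in the 4N- and 11.5 in the 4N+ TTF line. The TTF pair stood above the other 4 libraries for this gene. Zfp386, picked likewise, was also low in the PF pair, with 2.10 FPKM in the 4N- and 2.01 in the 4N+ line, against 6.02 FPKM or more in each of the other libraries.

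**Figure D1:**
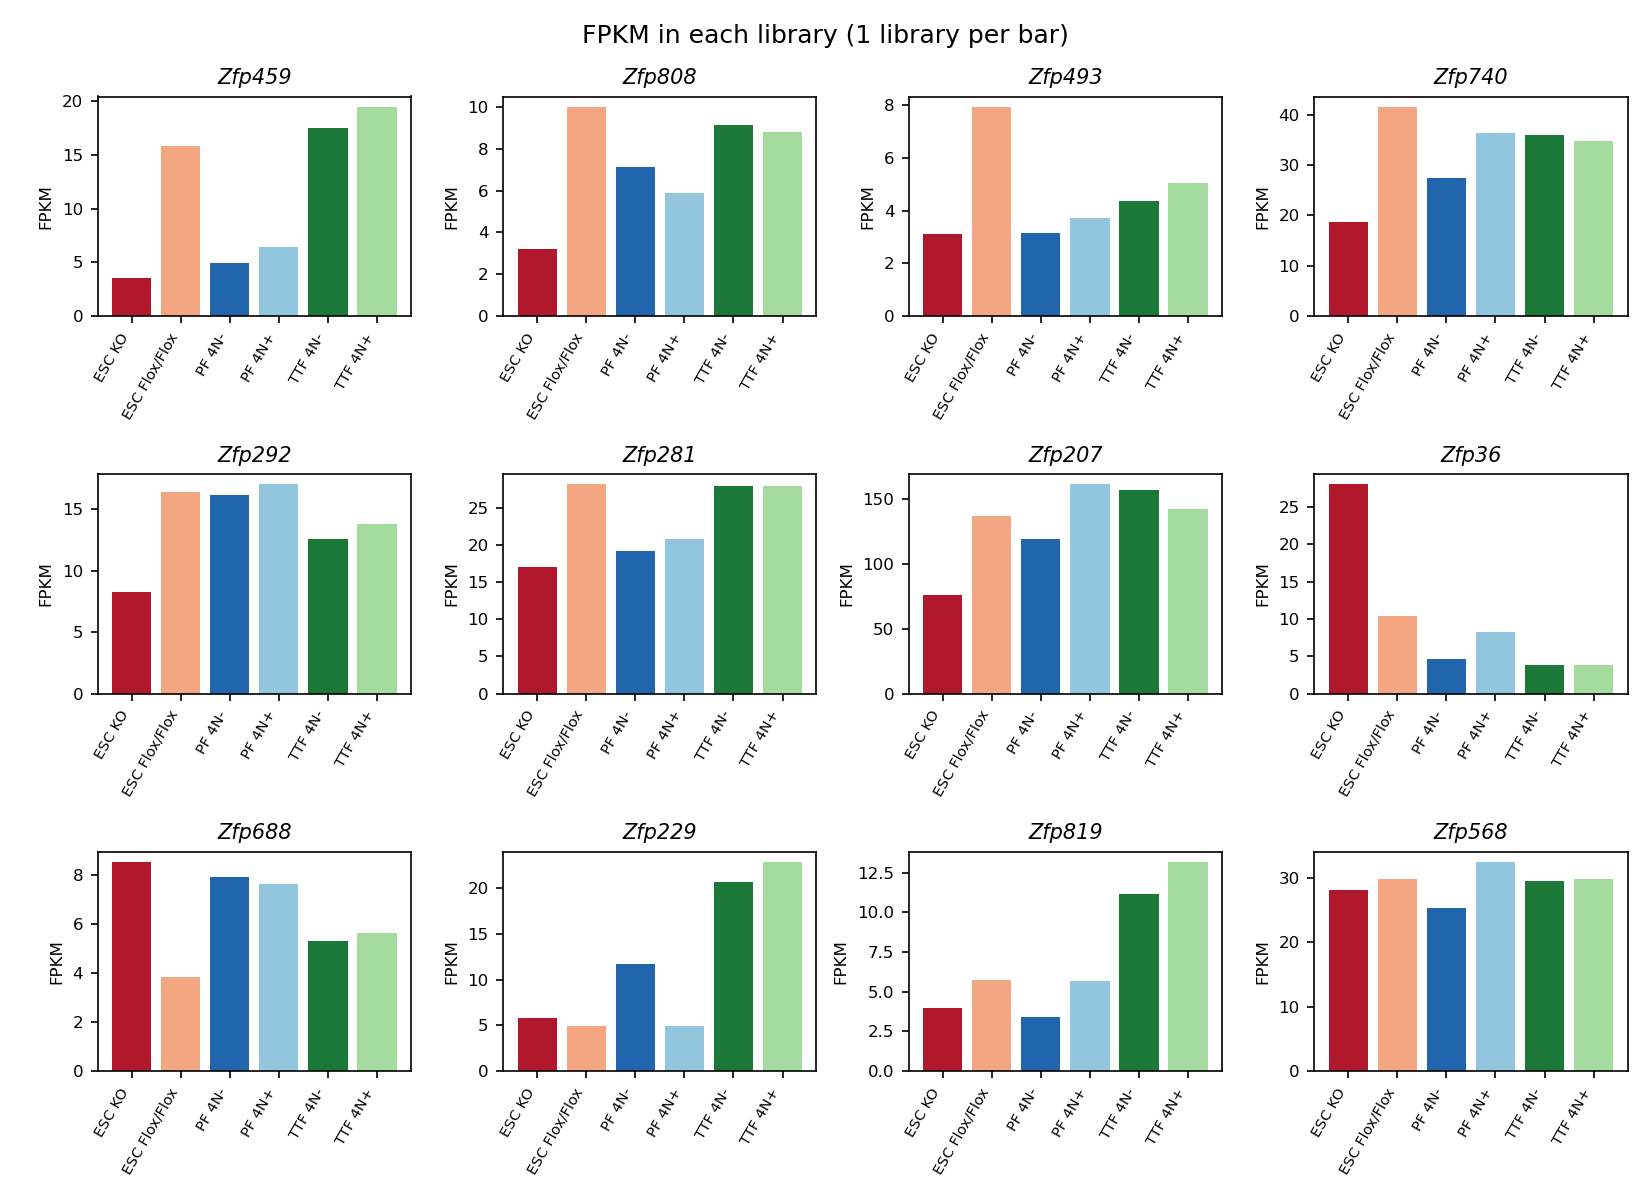
FPKM (y axis, linear from 0, own scale per gene) of 12 Zfp genes in each of the 6 libraries, 1 bar per library with no error bars because no condition has a second library. Zfp459, Zfp808, Zfp493, Zfp740, Zfp292, Zfp281 and Zfp207 have their lowest bar in the KO ESC, and Zfp36 and Zfp688 have their highest there.

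The proteins were read from the longest open reading frame of the GENCODE M21 coding transcripts, to which all 151 names matched, 7 of them through a newer symbol. A KRAB signature was found in 69 (45.7%), against 1.45% of 21877 coding genes. Members called without KRAB here are those with no match to the signature. A KRAB domain that departs from it would be missed, so some of them may carry one. Zfp192, now named Zkscan8, is among those with no match. At least 1 C2H2 finger was found in 145. The median was 10 fingers and the highest number was 33, in Zfp462. KRAB members had a median of 12 fingers and the others 6.5. No C2H2 finger was found in Zfp36, Zfp185, Zfp259, Zfp330, Zfp365 and Zfp839, and Zfp36 is known as a CCCH finger protein. The median mean level was 6.29 FPKM for the KRAB genes and 10.04 FPKM for the others. Chaining Zfp rows at gaps of up to 500 kb on mm9 gave 13 clusters with 3 or more members. They held 58 of the 151 genes, 43 with and 15 without KRAB. Near-identical copies are common in this family. In 17 members at least 10% of the 50-base windows of the transcripts also occur in another gene, led by Zfp935 (100%), Zfp82 (94.4%), Zfp600 (85.01%) and Zfp534 (70.4%), so their values are uncertain. The loci of 11 members overlap another gene, and strand use is not stated.

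RefSeq start-site windows of 250 bases before to 50 bases after the start, on GRCm38.p6, were matched for 125 members. The 3 printed here were chosen because they belong to the gene furthest below, the gene furthest above and the most abundant gene in the ESC comparison. Capitals mark motif letters found on either strand. They are an E box (CACGTG) in Zfp459, a GC box (GGGCGG, here on the other strand) in Zfp36, and a CCAAT box (CCAAT), a YY1 core (AAGATGGC) and an E box in Zfp207. The windows lie at chr13:67421369-67421668 on the minus strand for Zfp459, chr7:28379179-28379478 on the minus strand for Zfp36 and chr11:80383029-80383328 on the plus strand for Zfp207.
Zfp459: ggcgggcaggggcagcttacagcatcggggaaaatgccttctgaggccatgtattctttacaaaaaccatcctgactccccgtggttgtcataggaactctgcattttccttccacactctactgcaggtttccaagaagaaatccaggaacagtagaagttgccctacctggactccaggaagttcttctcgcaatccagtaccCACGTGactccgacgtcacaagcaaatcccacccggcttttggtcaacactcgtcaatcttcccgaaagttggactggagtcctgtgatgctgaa
Zfp36: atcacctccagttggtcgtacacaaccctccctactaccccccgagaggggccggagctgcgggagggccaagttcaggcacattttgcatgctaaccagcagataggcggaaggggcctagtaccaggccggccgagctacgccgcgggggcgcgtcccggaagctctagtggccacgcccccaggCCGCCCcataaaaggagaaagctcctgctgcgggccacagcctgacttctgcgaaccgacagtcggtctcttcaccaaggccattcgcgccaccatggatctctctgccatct
Zfp207: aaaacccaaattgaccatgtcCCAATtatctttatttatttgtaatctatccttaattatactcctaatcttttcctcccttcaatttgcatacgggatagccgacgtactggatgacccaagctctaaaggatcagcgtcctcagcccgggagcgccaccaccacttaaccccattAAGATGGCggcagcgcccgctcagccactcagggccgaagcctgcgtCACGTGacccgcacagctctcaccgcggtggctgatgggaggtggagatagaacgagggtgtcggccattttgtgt

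Some genes had more than 1 window. For these the highest CpG count was used, and a motif counted when any window held it. Genes with more windows thus had more chances of a match. The 125 members had a median of 15 CpG, against 8 over 27025 genes. The 27025 genes were not filtered on level, as the members were. Differences from them, here and for the motifs below, thus cannot be assigned to the Zfp family. KRAB members had a median of 12 CpG (59 genes) and the others 20 (66 genes). A GC box occurred in 54.4% of these members and 38.2% of all genes, and a CCAAT box in 53.6% and 41.1%. The YY1 core occurred in 8.0% of members (10 genes) against 3.19% of all genes. A CRE (TGACGTCA) occurred in 5.6% (7 members) against 2.03%, and the ZNF143 core (ACTACAATT) in 2.4% (3 members) against 0.448%. An E box occurred in 10.4% against 8.09%, and a TATA box (TATAAA) in 11.2% against 15.7%. Both strands were searched for each motif, and none of these motifs contains another. The 42 of these members at least 1.5-fold lower in the KO ESC had a median of 14.5 CpG and a GC box in 40.5%. The other 83 members had a median of 17 CpG and a GC box in 61.4%. A match is a run of letters, not a site in use.

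Deletion of H2A.X was studied for its effect on ESC, and in that comparison the Zfp genes were mostly lower in the KO. On the log2 scale, 120 of 151 were below 0, where 5076 of 8498 other genes at 5 FPKM in 1 of the 6 libraries were, and the median ratio was -0.44. At least 1.5-fold lower were 51 members (33.8%), where 15.9% of all 12086 genes measured at 1 FPKM were. At least 1.5-fold higher were 4 members, where 17.8% of measured genes were. Since the members were chosen on level, the nearer comparison is with those other genes at 5 FPKM, for which the median was -0.15. Of all 8649 genes at that level, members included, 20.4% were lower and 13.9% higher. At 2-fold, 9 members (5.96%) were lower and 1 (0.66%) was higher. Of all 8649 genes at 5 FPKM, 4.84% were lower and 6.82% higher by that much, and of measured genes 3.72% and 7.49%. The 6901 genes at 5 FPKM in both libraries had a median of -0.20. With that shift removed, 103 members were below 0, 28 were at least 1.5-fold lower and 10 were higher. Of all 8649 genes at 5 FPKM, 10.7% were then lower and 20.6% higher, and of all measured genes 8.09% were lower and 26.7% higher. The centred median was -0.24 for members, 0.06 for other genes at 5 FPKM and 0.17 for all measured genes. Higher calls thus made up 26.3% of the members' calls in place of 7.27%. Among the 149 members tested in the authors' deposited table, 0 were called, against 1.44% of 14589 genes. There, 4 members had a p-value under 0.05, and the lowest member q-value was 0.0633.

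**Figure D2:**
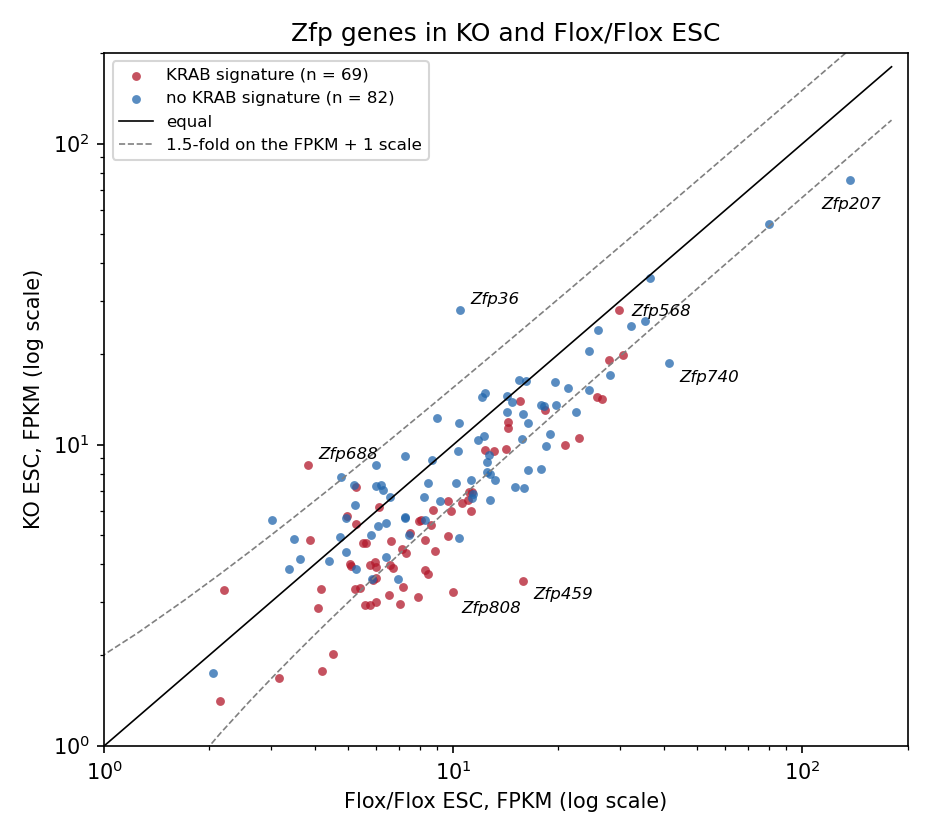
FPKM of the 151 Zfp genes in the KO ESC (y axis) against the Flox/Flox ESC (x axis), both on log scales, 1 point per gene, coloured by KRAB signature. Dashed lines mark 1.5-fold on the FPKM + 1 scale: 51 genes lie at or below the lower line and 4 at or above the upper one.

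The lowest ratio belonged to Zfp459, a KRAB gene on chromosome 13 (67506649 to 67522354 on mm9). It had 3.53 FPKM in the KO ESC against 15.8 FPKM in the Flox/Flox ESC, a log2 ratio of -1.89. In the iPSC it stood at 4.95 FPKM in the 4N- and 6.43 in the 4N+ PF line, and at 17.5 in the 4N- and 19.5 in the 4N+ TTF line, so its level also differed widely between the 2 iPSC tables. Zfp808 (3.23 FPKM in KO against 9.99 in Flox/Flox) and Zfp493 (3.11 FPKM in KO against 7.94 in Flox/Flox), also KRAB genes of chromosome 13, came next, with ratios of -1.38 and -1.12. Of the windows of Zfp808, 46.4% occur in another gene. Zfp740, with 2 fingers and no KRAB signature found, had 18.7 FPKM in the KO and 41.5 FPKM in the Flox/Flox ESC. Its 4 iPSC values, 27.3 FPKM in the 4N- and 36.3 in the 4N+ PF line, and 36.0 in the 4N- and 34.7 in the 4N+ TTF line, lay between those 2. Zfp266 (10.5 FPKM in KO against 23.0 in Flox/Flox), Zfp428 (7.19 in KO against 15.97 in Flox/Flox), Zfp345 (2.95 in KO against 7.02 in Flox/Flox) and Zfp532 (8.33 in KO against 17.8 in Flox/Flox) completed the 8 lowest. The authors' test had failed for Zfp266 and Zfp207 in this table.

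The higher end was led by Zfp36, which encodes tristetraprolin, a protein that binds AU-rich elements and promotes decay of messenger RNA. It had 28.0 FPKM in the KO ESC against 10.4 FPKM in the Flox/Flox ESC, a log2 ratio of 1.34. The KO value was the highest of the 6 libraries. Zfp688 had 8.54 FPKM in the KO against 3.83 in the Flox/Flox ESC (0.98), Zfp498 5.61 in the KO against 3.02 in the Flox/Flox (0.72) and Zfp637 7.81 in the KO against 4.75 in the Flox/Flox (0.62). These 4 were all of the members past 1.5-fold. Zfp414, Zfp295, Zfp951 and Zfp185 followed with ratios of 0.45, 0.44, 0.42 and 0.41.

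KRAB genes made up 33 of the 51 members that were lower in the KO ESC. Of the 69 KRAB members, 33 (47.8%) were at least 1.5-fold lower and 1 higher, with a median of -0.56. Of the 82 with no match to the KRAB signature, 18 (21.95%) were lower and 3 higher, with a median of -0.28. Of all 8649 genes at 5 FPKM, 20.4% were lower and 13.9% higher, so the share lower without KRAB was near that of genes at this level. The difference between both kinds was not tested. After centring, 18 of the 69 (26.1%) and 10 of the 82 (12.2%) were lower, where 10.7% of genes at 5 FPKM were. The centred medians were -0.36 and -0.07. Leaving out genes with 10% or more shared windows left 23 of 56 KRAB members lower, with a median of -0.51. Grouped by finger number, 42 members had more than 12 fingers, and of these 19 were lower and 41 were below 0 (median -0.54). Of 71 with 6 to 12 fingers 24 were lower (median -0.44), and of 32 with 1 to 5 fingers 8 were (median -0.34). Of the 6 without a C2H2 finger 0 were lower, and their median was 0.26. KRAB, finger number and level go together in these genes, and which of them the ratios follow was not tested.

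**Figure D3:**
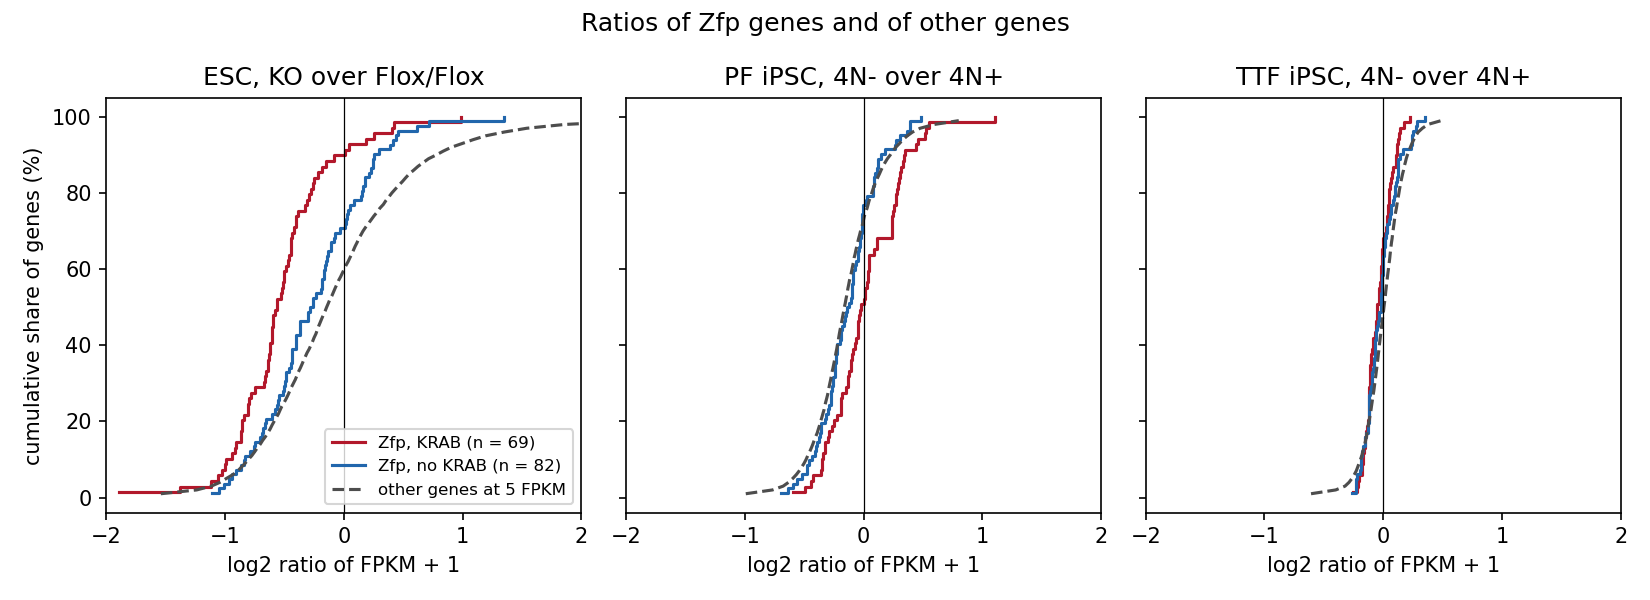
Cumulative share of genes (y axis, %) by log2 ratio of FPKM + 1 (x axis) in the 3 tables, for Zfp genes with KRAB, Zfp genes without KRAB, and other genes at 5 FPKM in 1 of the 6 libraries (1st to 99th percentile). In the ESC panel the KRAB curve lies furthest left (median -0.56), in the PF panel it lies furthest right (median -0.03), and in the TTF panel the curves nearly coincide.

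By position, 25 of the 58 clustered members (43.1%) and 26 of the 93 others (28.0%) were at least 1.5-fold lower in the KO ESC. Of all genes at 5 FPKM, 20.4% were. KRAB was found in 43 of the 58 and in 26 of the 93, and position was not separated from KRAB. In the cluster on chromosome 13 from 67139529 to 67927937 all 4 members were at least 1.5-fold lower, with a median of -0.89. They were Zfp459 and Zfp493, given above, Zfp87 (4.37 FPKM in KO against 7.29 in Flox/Flox) and Zfp748 (3.88 FPKM in KO against 6.70 in Flox/Flox). Chromosome 13 had the lowest median of all chromosomes for genes at 5 FPKM in this pair, -0.37 over 301 genes, and the median of its 14 Zfp genes was -0.64. Among those 301 genes, 30.9% were at least 1.5-fold lower. The larger of the chromosome 17 clusters, 32902441 to 33768659 with 9 members, had 2 lower. The other, 21145904 to 23736454 with 8 members, had 5 lower. On chromosome 7, 3 of 7 members from 30553570 to 30954746 and 3 of 4 from 50432957 to 50873649 were lower. Of genes at 5 FPKM, 17.8% were lower on chromosome 17 and 14.3% on chromosome 7. The cluster on chromosome 6 from 47769264 to 48573226 differed in sign. All of its 4 members were above 0, none by 1.5-fold, with a median of 0.17. They were Zfp212 (5.71 FPKM in the KO and 4.92 in the Flox/Flox ESC), Zfp956 (3.86 in KO and 3.38 in Flox/Flox), Zfp777 (4.84 in KO and 3.89 in Flox/Flox) and Zfp746 (4.94 in KO and 4.73 in Flox/Flox). The 402 genes at 5 FPKM on chromosome 6 had a median of -0.20. One cluster on chromosome 7 held both ends, with Zfp60 and Zfp59 at least 1.5-fold lower and Zfp36 higher.

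**Figure D4:**
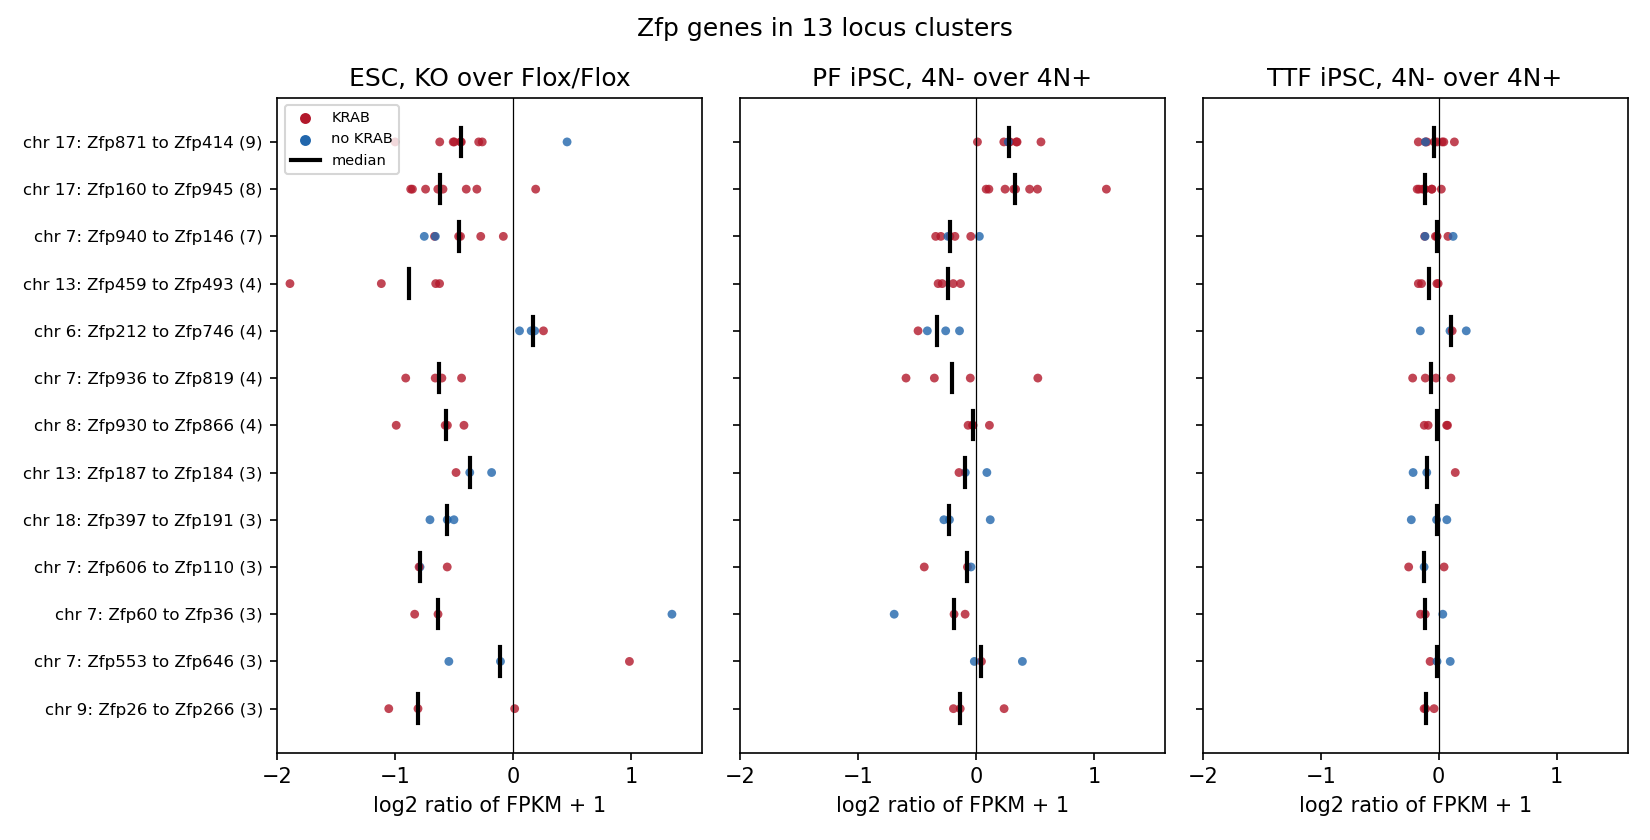
Log2 ratio of FPKM + 1 (x axis) of each Zfp gene in the 13 locus clusters (rows, named by chromosome, first and last gene, and number of genes), coloured by KRAB signature, in the 3 tables. Black ticks are medians. The chromosome 13 row led by Zfp459 lies furthest left in ESC (median -0.89), and both chromosome 17 rows lie to the right of 0 in the PF pair only.

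Of the 6 members listed as repressors of retroelements and imprinted genes, 1 was at least 1.5-fold lower in the KO ESC and 0 were after centring, where 20.4% of genes at 5 FPKM were lower before and 10.7% after centring. All 6 were below 0 before centring, with a median of -0.45, beside -0.44 for all 151 members. Zfp809, which silences murine leukaemia virus through its primer binding site, had 13.9 FPKM in the KO and 15.5 in the Flox/Flox ESC. Zfp568, which represses a placental promoter of Igf2, had 28.1 FPKM in the KO and 29.9 in the Flox/Flox ESC, while Igf2 itself had 426 FPKM in the KO and 14.7 in the Flox/Flox ESC. Whether the levels of the 2 genes are related was not tested. Zfp445, which protects imprints, had 19.1 FPKM in the KO and 27.9 in the Flox/Flox ESC. Zfp961 had 12.99 FPKM in KO and 18.3 in Flox/Flox, and Zfp819, a repressor of endogenous retroviruses, 3.98 FPKM in KO and 5.75 in Flox/Flox. After centring, Zfp568 (0.12) and Zfp809 (0.05) lay above 0. The member past 1.5-fold was Zfp932 (4.00 FPKM in KO and 6.59 in Flox/Flox), which shares 55.5% of its windows. Zfp708 of the same list stayed below 5 FPKM, with 2.05 FPKM in the KO and 3.82 in the Flox/Flox ESC.

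Of the regulators of pluripotent cells, 3 of 7 members were at least 1.5-fold lower in the KO ESC and none was higher by that much. After centring 1 of 7 was lower, beside the same 20.4% and 10.7% of genes at 5 FPKM. Zfp281, a regulator of Nanog, had 17.04 FPKM in the KO and 28.2 in the Flox/Flox ESC, Zfp292 had 8.26 FPKM in KO and 16.4 in Flox/Flox, and Zfp706 had 10.8 in KO and 18.9 in Flox/Flox. Zfp462 had 11.8 FPKM in KO and 16.4 in Flox/Flox, and Zfp217 10.7 in KO and 12.2 in Flox/Flox. Zfp143, a promoter-bound activator, was level at 16.3 FPKM in the KO and 16.2 in the Flox/Flox ESC. Zfp296, a Klf4 partner, had 4.17 FPKM in KO and 3.63 in Flox/Flox. In the same pair Sox2 had 48.5 FPKM in the KO and 142 in the Flox/Flox ESC, and Nanog 111 in both, so neither the Zfp genes nor the core markers were uniformly lower. Zfp131 was listed at 0.00927 FPKM in KO and 0 in Flox/Flox.

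Among 13 members with roles in RNA, mitosis and protein turnover, 2 (15.4%) were at least 1.5-fold lower and 1, Zfp36, was higher, before and after centring. Of all genes at 5 FPKM, 20.4% were lower and 13.9% higher before centring, and 10.7% were lower and 20.6% higher after it. The lower ones were Zfp207 and the splicing-related Zfp326 (9.93 FPKM in the KO and 18.4 in the Flox/Flox ESC). Zfp598, the ubiquitin ligase that senses collided ribosomes, had 14.4 FPKM in KO and 12.04 in Flox/Flox, and Zfp622, a factor of large ribosomal subunit assembly, had 13.8 in KO and 14.7 in Flox/Flox. Zfp451, a SUMO ligase, had 15.4 FPKM in KO and 21.2 in Flox/Flox. Zfp259, now named Zpr1, had 20.5 FPKM in KO and 24.4 in Flox/Flox. Of the 6 lineage regulators that are members, 1 (16.7%) was lower before and after centring, beside the same shares of genes at 5 FPKM. It was Zfp110, with 14.4 FPKM in the KO and 25.8 in the Flox/Flox ESC. Zfp423, an adipogenic and neural factor, had 1.75 FPKM in KO and 2.05 in Flox/Flox and entered through the TTF pair, where it had 6.41 FPKM in the 4N- and 5.09 in the 4N+ line.

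Of 20 measured genes of the machinery that KRAB proteins recruit, 9 were at least 1.5-fold lower in the KO ESC and 1 was higher, with a median ratio of -0.51. Of all genes at 5 FPKM, 20.4% were lower and 13.9% higher. After centring 3 of the 20 were lower, where 10.7% of genes at 5 FPKM were, and the median was -0.30. Trim28 had 183 FPKM in the KO and 236 in the Flox/Flox ESC. The methyltransferase gene Setdb1 had 26.1 FPKM in KO and 45.1 in Flox/Flox. Of the HP1 genes, Cbx1 had 60.03 FPKM in KO and 177 in Flox/Flox (log2 ratio -1.54), Cbx5 had 46.5 FPKM in KO and 103 in Flox/Flox (-1.14), and Cbx3 had 3.31 FPKM in KO and 6.16 in Flox/Flox (-0.73, beside -0.77 for Setdb1). The chromatin remodeller gene Smarcad1 had 14.7 FPKM in KO and 30.7 in Flox/Flox. The gene past 1.5-fold higher was Chd3 (4.11 FPKM in KO and 2.10 in Flox/Flox). Of 17 Zbtb genes at 5 FPKM, a related C2H2 family with a BTB domain, 5 were lower and 1 higher (median -0.33). After centring 1 of the 17 was lower and 1 higher (median -0.12). Of 7 Zkscan and Zscan genes, whose proteins carry a SCAN domain, 2 were lower and 1 higher (median -0.33). After centring 0 of the 7 were lower and 1 higher (median -0.12). The same 20.4% and 10.7% of genes at 5 FPKM stand beside these lower counts. The Zfp median of -0.44 was not tested against the medians of these gene sets.

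The PF pair asked how an iPSC line labelled 4N- differed from one labelled 4N+. Few Zfp genes differed by 1.5-fold, and on chromosomes 6, 11 and 17 most of them lay on the same side of 0 as most other genes of the chromosome. Lower in the 4N- line were 4 members, where 4.85% of 11606 measured genes were, and higher was 1, where 1.98% were. The members' median was -0.09, against -0.13 for all measured genes. The one higher was Zfp229, a KRAB gene on chromosome 17 (21870690 to 21885936 on mm9) with 16 fingers. It had 11.8 FPKM in the 4N- and 4.94 in the 4N+ PF line, a log2 ratio of 1.10. It stood higher still in the TTF pair, at 20.8 FPKM in the 4N- and 22.9 in the 4N+ line, and near the 4N+ PF level in ESC, at 5.79 FPKM in the KO and 4.96 in the Flox/Flox. In the authors' deposited table it was the 1 member called of 150 tested (q-value 0.0204), against 0.537% of 13956 genes.

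The 4 lower in the 4N- PF line were Zfp36 (4.68 FPKM in 4N- against 8.18 in 4N+), Zfp532 (5.22 in 4N- against 8.68 in 4N+), Zfp819 (3.43 in 4N- against 5.68 in 4N+) and Zfp710 (11.7 in 4N- against 18.1 in 4N+). None of them reached 2-fold. Zfp36 had 3.90 FPKM in the 4N- and 3.78 in the 4N+ TTF line, so the 4N+ PF line was the highest of the 4 iPSC libraries. Fibroblast markers, with S100a4 at 0.153 FPKM in the 4N- and 40.1 FPKM in the 4N+ PF line, moved in the same direction, and their part was not tested. After centring on the shift of this pair, -0.17, 0 members were lower and 7 were higher, where 2.03% of measured genes were lower and 4.4% higher. The 7 were Zfp229, Zfp870, Zfp760 and Zfp945 on chromosome 17, and Zfp936, Zfp365 and Zfp534 elsewhere. The members' median was then 0.08.

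All 19 Zfp genes of chromosome 17 were above 0 in the 4N- PF line, with a median of 0.29. The same held for most genes of that chromosome, for 382 of the 434 at 5 FPKM, with a median of 0.24. On chromosome 6 all 7 Zfp genes were below 0, 6 of them after centring (median -0.37 as deposited), as were 365 of 396 genes at 5 FPKM (median -0.42). On chromosome 11, 6 of 8 Zfp genes were below 0 (median -0.38), as were 704 of 755 genes (median -0.42). In the TTF pair 14 of the 19 chromosome 17 members were below 0 (median -0.10), and the 436 genes at 5 FPKM there had a median of 0.03. In the KO ESC the same 19 had a median of -0.45. Without chromosome 17, 0 Zfp genes were 1.5-fold higher in the 4N- PF line, and 4 were 1.5-fold lower. Of the 17 members in the chromosome 17 clusters, 16 carry KRAB. Over all members of the PF pair, chromosome 17 included, the median was -0.03 with KRAB and -0.13 without. The part of chromosome 17 in that difference was not tested.

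**Figure D5:**
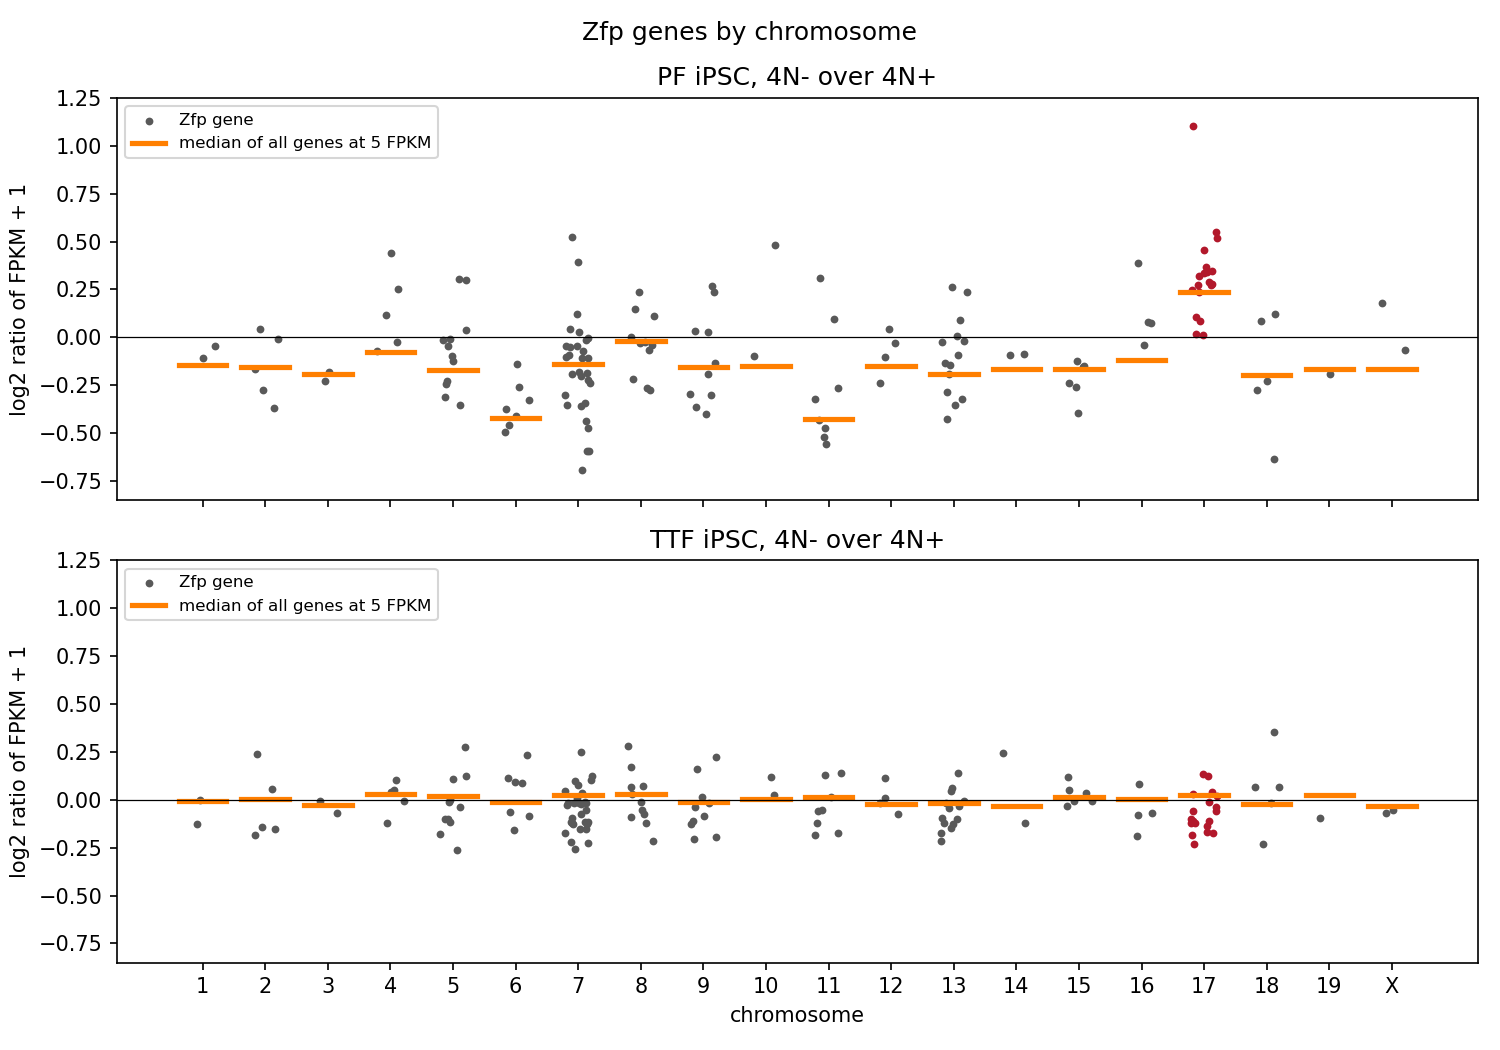
Log2 ratio of FPKM + 1 (y axis) of each Zfp gene by chromosome (x axis) in the PF pair (upper panel) and the TTF pair (lower panel), with points spread sideways for legibility and chromosome 17 in red. Orange bars are medians of all genes at 5 FPKM on that chromosome. In the PF pair all 19 chromosome 17 points lie above 0 and all 7 chromosome 6 points below it, and the orange bars lie on the same sides.

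In the TTF pair no Zfp gene differed by 1.5-fold. Of 151 members 0 were 1.5-fold higher, where 0.828% of 11354 measured genes were, and 0 were 1.5-fold lower, where 0.907% were. Ratios ran from -0.26 for Zfp655 (17.4 FPKM in the 4N- and 21.1 in the 4N+ line) to 0.36 for Zfp516 (4.66 FPKM in 4N- and 3.42 in 4N+), with a median of -0.04. Among the 150 members tested in the authors' deposited table, 0 were called, against 0.301% of 14289 genes, and 1 member had a p-value under 0.05. The authors' test had failed for Zfp281 in both iPSC tables. Zfp809 (21.6 FPKM in 4N- and 18.3 in 4N+), Zfp296 (8.20 in 4N- and 6.74 in 4N+) and Zfp423 were among the 8 highest ratios, and Zfp819 (11.2 in 4N- and 13.2 in 4N+), Zfp710 (13.8 in 4N- and 16.4 in 4N+) and Zfp606 (3.06 in 4N- and 3.85 in 4N+) among the 8 lowest.

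The 4 iPSC libraries allow 1 test of 4N- against 4N+, with parental cells as a block and 1 residual degree of freedom. limma with Benjamini-Hochberg adjustment called 0 of the 151 members at an adjusted p under 0.05, against 0.117% of 11985 genes. An unadjusted p under 0.05 was reached by 2 members (1.32%), against 3.72% of all genes. They were Zfp819 and Zfp710. Zfp819 had a log2 difference of -0.41 (SE 0.158, limma adjusted p 0.999) and Zfp710 one of -0.41 (SE 0.173, limma adjusted p 0.999), both lower in 2 of 2 4N- lines. Over all 151 members, 69 were lower in both 4N- lines and 25 higher in both, which became 38 and 31 after centring. The share of all genes lower in both was not counted, so these counts are not a result about the Zfp genes. Of measured genes, 7908 of 11606 were below 0 in the PF pair and 5665 of 11354 in the TTF pair. With 1 residual degree of freedom, the limma test does not show that the other Zfp genes were alike in 4N- and 4N+ lines.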

How the data were processed

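Messenger RNA was sequenced in 6 cultures, 1 library each. The submitters' processing notes name CASAVA, TopHat2 and mm9. Program versions, the quantifier, its annotation and strand use are not given in the sources at hand. Each of the 3 tables deposited by the authors holds 22558 genes with FPKM values for 2 libraries, and p-values and q-values made by the authors, which were counted and, for a few members, printed as the authors' values. The library values were treated as FPKM because of their range, and the tables as scaled separately, so ratios were taken within a table.

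Ratios are differences of log2(FPKM + 1), a pseudocount of 1. A gene was measured at 1 FPKM in 1 of a table's 2 libraries. Differences of 1.5-fold and 2-fold were counted with no test. Centring subtracted the median ratio of genes at 5 FPKM in both libraries. limma 3.58.1 in R 4.3.3 (trend, parental cells as a block, Benjamini-Hochberg adjustment) tested the 4 iPSC libraries. Nothing in the labels says that lines of 1 parental cell type share an animal, and its p-values measure only the spread between these samples. On simulated data for that comparison over 11985 genes it found 38% of the 50 genes set to change 1.5-fold, 98% of the 50 set to change 2-fold and 100% of the 50 set to change 4-fold, and called 0.0679% of unchanged genes. These shares describe simulated data only.

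A C2H2 finger was a C, 2 or 4 residues, C, 12 residues, H, 3 to 5 residues, H. KRAB was a box A signature with up to 1 mismatch. Both were read from translated GENCODE M21 transcripts, a choice made after the files had been seen because no protein table was in hand. Promoter windows came from RefSeq on GRCm38.p6, another build than the mm9 loci, and no coordinates were compared between them. Depth came from 1205 intronless receptor genes whose lowest values are worth whole fragments. After fitting 1 divisor and a length offset per library, 98.2% to 100% of the low values lay within 0.05 of a whole number. The offset was not unique, so the depth is approximate.

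Members and gene lists were chosen with earlier results of these data known. Named were, per table, the 8 highest and 8 lowest ratios, the role lists, the 8 highest mean levels, members of clusters and the neighbours of the threshold, and 106 members met this rule. Zfp386, Zfp600, Zfp839 and Zfp935 lie outside it and were named after their values were seen.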

Additional observations from a re-analysis of the deposited data

Results flagged for a closer look

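For 3 genes the 4N- against 4N+ contrast passed 1.5-fold in the PF pair and had the opposite sign in the TTF pair. The difference was not tested, since each contrast is 1 library against 1. The log2 ratio in the PF pair minus that in the TTF pair was 1.24 for Zfp229, the chromosome 17 KRAB gene (1.10 in the PF and -0.14 in the TTF pair). It was -0.73 for Zfp36 (-0.69 and 0.03) and -0.70 for Zfp532 (-0.64 and 0.07). Zfp36 and Zfp532 were nearly level in the TTF pair, so their sign there carries little weight. Chromosome 17 genes at 5 FPKM had a median of 0.24 in the PF and 0.03 in the TTF pair, and fibroblast marker genes summed to 5.07 FPKM in the 4N- and 56.0 FPKM in the 4N+ PF line.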

How the results depend on the processing

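The KO against Flox/Flox contrast in ESC kept its direction but not its size. With ratios centred, 10 members were higher and 28 lower, the median was -0.24, and 18 KRAB members and 10 without KRAB were lower. Restricting members to those at 10 FPKM left 1 higher and 29 lower. The share of all genes at 10 FPKM is not given here, so those counts have no background beside them. Of genes at 5 FPKM, 20.4% were lower and 13.9% higher. In the PF pair, centring gave 7 higher, 0 lower and a median of 0.077, a pseudocount of 0.1 gave 2 higher, and leaving out chromosome 17 gave 0 higher. The cause was not tested, beyond the smaller number of members under the last and the 10 FPKM settings. Leaving out members with shared 50-base windows or overlapping loci, settings added after the data were seen like the one without chromosome 17, left every count within 1.5 times. In the TTF pair every count stayed at 0. A gap of 250 kb in place of 500 kb gave 9 clusters in place of 13. In the iPSC limma fit 0 members were called under every alternative, including the fit with no replicate block (0 members, 3 genes of 11985) and each fit without 1 library (0 to 0 members, 1 to 17 genes). The fits with 1 library left out also had no block for parental cells. They thus compared values across the PF and TTF tables, and are not the blocked test less 1 library. Each assumes that the lone library left in its 4N- or 4N+ group varies like the others. Of the 106 named members, 17 lost and 4 gained the 1.5-fold mark in ESC after centring, and 4 lost and 6 gained it in the PF pair. Each condition is 1 line with 1 library, and counting error is wider for genes with fewer fragments.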
